A study of Homo sapiens with 16 samples.

Results

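Downstream-of-gene readthrough transcripts (DoGs) were compared between RNA prepared from stressed human cells by conventional acid guanidinium-phenol-chloroform (AGPC) extraction and by heat-assisted improved AGPC (hiAGPC). The comparison rested on 4 of the 16 libraries of the series, namely 2 conventional and 2 hiAGPC libraries, which were chosen by their sample labels. All 4 came from wild-type HEK293, an established human line of embryonic kidney origin, and the cells were given 200 mM sorbitol and 100 µg/mL cycloheximide for 9 h. Sorbitol imposes hyperosmotic stress and cycloheximide blocks translation, so both preparations shared both agents. In hiAGPC the lysate was heated at 55 °C before phase separation. The methods of the study state that the preparations were made in parallel from the same material, but not which libraries form a pair, and each preparation had 2 biological replicates. Untreated control cells were prepared in the same ways. SERIPH libraries of the stressed cells, in which the aqueous phase was taken first (1st step) and the interphase was then extracted by hiAGPC (2nd step), are used below only as neighbouring values. The cell line is a single cultured line, and its identity could not be checked from these tables, which hold readthrough regions and no gene expression.

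RNA polymerase II normally stops soon after the nascent RNA has been cleaved and polyadenylated at the 3′ end of a gene. Under osmotic stress and other insults termination fails at many genes, and transcription runs on into downstream sequence to give DoGs, which stay in the nucleus close to chromatin. In AGPC extraction RNA partitions into the aqueous phase, whereas some nuclear RNAs held in protein-rich assemblies are left at the interphase unless the lysate is heated or sheared, and such RNAs are termed semi-extractable.

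A DoG is measured here in 2 ways. Each library has its own list of DoG-producing genes, each with a region of at least 10 kb downstream of the gene, extended in windows of 5 kb at a minimum coverage of 0.5, so that a listed region may hold gaps. A second table gives 1 FPKM value per DoG and library (fragments scaled to the length of the region and to the size of the library, rounded to 0.01) over 1 fixed region, which for 98.1% of DoGs was the longest region listed in any of the 16 libraries, to within 1 base. Of 3505 genes listed anywhere, 3135 had FPKM values, and 4 of them had a further region, giving 3139 DoGs tested. The number of reads behind each value is unknown, so no counting error can be given, and an FPKM is relative to the reads that scale its own library.

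The border from which each region was counted is shown for 4 of the DoGs that were higher and 3 of those that were lower in hiAGPC, because readthrough was measured only beyond it. Each run, taken from the GRCh38 reference, holds the last 30 bases before the region and its first 30 bases on the gene's strand, and capitals mark AATAAA or ATTAAA, the 2 commonest polyadenylation hexamers, where one lay in the first 30 letters.
USP11 (chrX:47248299-47248358, plus strand): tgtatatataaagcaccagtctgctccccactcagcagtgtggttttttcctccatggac
RCN3 (chr19:49546933-49546992, plus strand): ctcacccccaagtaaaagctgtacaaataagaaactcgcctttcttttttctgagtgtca
USP9X (chrX:41236550-41236609, plus strand): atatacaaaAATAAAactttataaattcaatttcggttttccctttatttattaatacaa
RRM2 (chr2:10211696-10211755, plus strand): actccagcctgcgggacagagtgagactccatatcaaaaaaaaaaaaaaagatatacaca
NEK6 (chr9:124353278-124353337, plus strand): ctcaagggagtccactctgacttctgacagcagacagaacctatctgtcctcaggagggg
PGM2 (chr4:37862999-37863058, plus strand): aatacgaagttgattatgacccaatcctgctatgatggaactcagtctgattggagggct
HUS1 (chr7:47961852-47961911, minus strand): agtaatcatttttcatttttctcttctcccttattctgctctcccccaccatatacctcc

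In these 7 runs a hexamer stood before the border of USP9X alone. Over all 3135 DoGs with a listed region, 1666 (53.1%) had AATAAA or ATTAAA on the gene's strand in those 30 bases. The share was 53.8% among DoGs called higher and 40.0% (6 of 15) among those called lower, so this window did not set the large group apart from all DoGs. A region opened at the last annotated end of its gene in the annotation used by the authors, which need not be the polyadenylation site in use. In GENCODE release 44, which was at hand here, USP11, RCN3, USP9X, RRM2 and NEK6 ended at the base before their regions. PGM2 ended 0.091 kb and HUS1 1.41 kb upstream of theirs.

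hiAGPC libraries listed more DoGs, and longer ones. The conventional libraries held 418 and 380 DoG-producing genes and the hiAGPC libraries 1789 and 1747, so that the groups were far apart relative to their spread (399 ± 26.9 and 1768 ± 29.7, SD, n = 2). The summed length of the listed regions was 8.76 and 7.37 Mb in conventional and 115 and 106 Mb in hiAGPC libraries, a 13.7-fold ratio of means and hence wider than the ratio of gene numbers. Regions of 100 kb or more numbered 6 and 3 in conventional and 314 and 279 in hiAGPC libraries. Regions at the 10-kb minimum made up 45.2% and 48.9% of the conventional lists but 20.6% and 22.0% of the hiAGPC lists. With 2 libraries against 2, the exact two-sided permutation test cannot give a p below 0.333, which is the p of each of these contrasts.

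**Figure D1:**
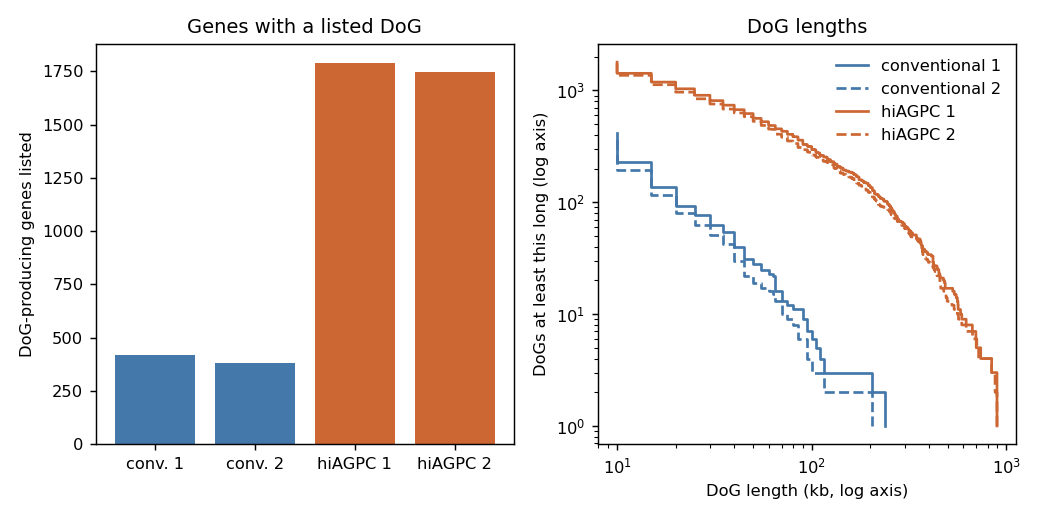
Left, number of DoG-producing genes listed in each of the 4 libraries of stressed cells. Right, number of DoGs at least as long as the length on the x axis (kb), both axes logarithmic, 1 line per library. The hiAGPC lines lie above the conventional lines at every length, and replicates of a preparation run side by side.

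The 2 sets of genes were largely nested. Of 342 genes listed in both conventional libraries, 293 (85.7%) were listed in both hiAGPC libraries, and these were 18.8% of the 1555 genes that both hiAGPC libraries listed. A further 1177 genes (75.7% of the 1555) were in both hiAGPC lists and in neither conventional list. Those of them with FPKM values, 1030 in number, had a median of 0.80 FPKM in hiAGPC and 0.175 FPKM in conventional libraries. These DoGs were selected by their listing in the same 4 libraries, so the gap between the medians is no separate result.

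In the opposite direction, 35 genes were listed in both conventional libraries and in neither hiAGPC library. For 22 of them no FPKM was given, and at 21 of these 22 the DoG began inside a region that both hiAGPC libraries listed for another gene on the same strand. Examples are CUEDC1 and CCDC182 inside the DoG of SRSF1, which encodes a splicing factor, CDKN1A (the cell-cycle inhibitor p21) inside that of the splicing factor gene SRSF3, and TRNAU1AP inside that of RCC1. The same was true of 0 of the 13 that had FPKM values. Among genes listed in all 4 libraries it was true of 0 of 281 with FPKM values and 0 of 12 without. How far the rules for listing and measuring regions set these counts was not tested. The 13 genes listed by conventional libraries alone and given FPKM values included NEK6, which was called lower in hiAGPC, and DUSP1. DUSP1, a MAP kinase phosphatase gene induced by stress, had 1.13 and 1.51 FPKM in conventional and 0.79 and 0.69 FPKM in hiAGPC libraries. The genes named from this group, other than NEK6 and DUSP1, were picked after their values were seen.

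For the 293 DoGs listed in all 4 libraries, lengths could be set side by side gene by gene. The median was 47.5 kb in hiAGPC and 15 kb in conventional libraries, and the median ratio of a DoG's mean lengths was 2.67. Of the 293, 229 were longer on average in hiAGPC, 59 were equal and 5 were shorter. In 205 (70.0%) both hiAGPC regions were longer than both conventional regions, and in 3 both were shorter. Replicates gave the same length for 187 DoGs in hiAGPC (63.8%) and for 229 in conventional libraries (78.2%). Where the region reached no other gene on its strand (protein-coding or long noncoding, as throughout) the median ratio was 1.25, a restriction that also keeps mostly short regions, since long ones meet more genes.

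The largest ratio belonged to MORF4L1, which encodes a chromatin-binding subunit of histone acetyltransferase complexes. Its region was 10 kb in both conventional and 840 kb in both hiAGPC libraries. ZIC2, a transcription factor gene, was listed at 10 kb in both conventional libraries and at 669 and 670 kb in hiAGPC. BUB3, a spindle checkpoint gene, was listed at 10 kb in both conventional libraries and at 485 and 275 kb in hiAGPC, and its hiAGPC replicates therefore differed by much more than those of the other 2. The longest hiAGPC regions, besides MORF4L1, were 895 kb in both libraries for the ribosomal protein gene RPS29, which neither conventional library listed, and 895 and 875 kb for HNRNPD (AUF1), listed at 20 and 40 kb in conventional libraries. Each of these 5 regions held other genes on the same strand. The smallest ratios belonged to ZFP14, a zinc finger gene, at 20 kb in both conventional and 10 kb in both hiAGPC libraries, and to CDCA7L and EVC, the latter a gene of the cilium, each at 15 kb in both conventional and 10 kb in both hiAGPC libraries.

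Levels mostly moved the same way as the lists, but the 2 measures are not independent. Every DoG tested was listed in some library. For 85.3% the longest listing, over which the FPKM was mostly taken, came from a stressed hiAGPC or SERIPH 2nd-step library. Of 3139 DoGs with FPKM values, 2159 (68.8%) were higher in hiAGPC and 15 (0.478%) were lower at an adjusted p under 0.05 and at least a 2-fold difference, by limma on log2(FPKM + 0.1) with Benjamini-Hochberg adjustment, the rule used throughout for a call. With a pseudocount of 1 in place of 0.1 the counts were 144 and 2, since most DoGs lay below 1 FPKM. The median DoG stood at 0.58 FPKM in each hiAGPC library and at 0.16 and 0.14 FPKM in the conventional libraries. Both hiAGPC values exceeded both conventional values at 2804 DoGs (89.3%), and the reverse held at 189 (6.02%). A log2 fold change of 2 or more was called at 466 DoGs (14.8%) and one of 3 or more at 11. Another 524 DoGs passed the adjusted p higher and 113 lower at less than 2-fold, so that 85.5% were higher by the adjusted p alone, and at 583 the 95% interval of the difference lay within 2-fold either way. Because the pseudocount pulls low values together, these log2 fold changes understate the ratio of the FPKM values themselves.

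Most DoGs shifted in 1 direction, and the split of the calls depended on the scaling. With the median DoG of every library set to the same level, which removed a difference of 1.44 on the log2 scale, 111 DoGs were called higher and 502 lower. The calls given here are relative to the reads that scale each FPKM, and the centred calls are relative to the other DoGs. Of the 2159 DoGs called higher, 1105 were listed in both hiAGPC libraries, and 814 were listed in neither, so a higher level did not require a listed region.

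**Figure D2:**
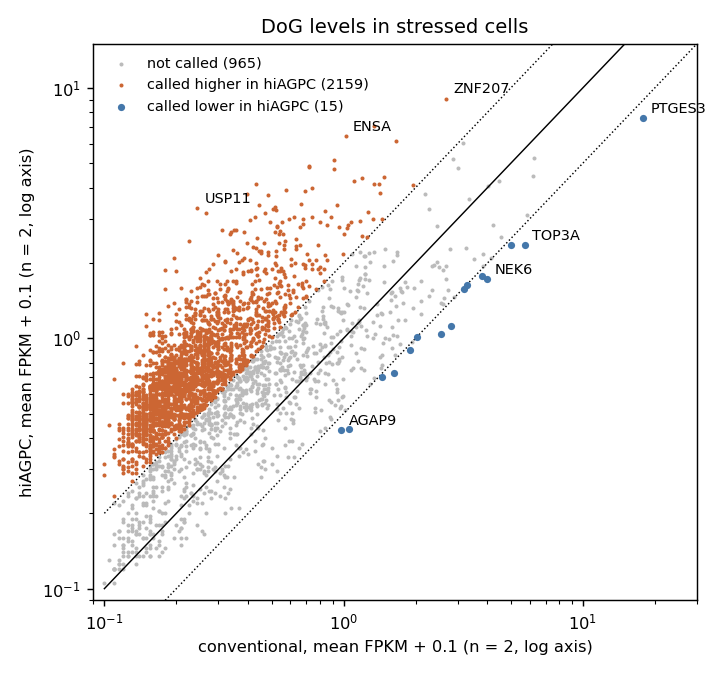
Mean FPKM + 0.1 of each of the 3139 DoGs in conventional (x) and hiAGPC (y) libraries of stressed cells, n = 2 each, both axes logarithmic. The solid line marks equal levels and the dotted lines 2-fold differences. Most points lie above the upper dotted line at low conventional FPKM, and the DoGs called lower lie at the right, where the conventional level was high.

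The DoG of USP11, a deubiquitinase gene on the X chromosome, differed most. It stood at 0.15 and 0.14 FPKM in the conventional and at 3.30 and 3.11 FPKM in the hiAGPC libraries, a log2 fold change of 3.75 ± 0.08 (SE; adjusted p = 2.28e-11, limma). Its region of 311 kb was listed in both hiAGPC libraries and in neither conventional library, and it ran over ZNF157, LINC01560 and ENSG00000203402 on the same strand. Next came RCN3, a calcium-binding protein gene of the secretory pathway, at 0.17 and 0.16 FPKM in conventional and 3.20 and 2.94 FPKM in hiAGPC libraries (3.58 ± 0.09). USP9X, another X-linked deubiquitinase gene, had 0.14 and 0.11 FPKM in conventional and 2.35 and 2.34 FPKM in hiAGPC libraries. The groups stood well apart at each of these loci, and the replicates were nearly equal.

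RAB3A, a small GTPase gene of vesicle release, followed with 0.10 and 0.09 FPKM in conventional and 2.10 and 1.87 FPKM in hiAGPC libraries. The DoG of TINCR, a gene known from epidermal differentiation, had 0.08 FPKM in both conventional libraries and 1.82 and 1.73 FPKM in hiAGPC. That of PYCARD-AS1, a noncoding gene antisense to the inflammasome adaptor gene PYCARD, had 0.31 and 0.28 FPKM in conventional and 3.78 and 3.6 FPKM in hiAGPC libraries. None of these 6 DoGs was listed in a conventional library, and all 6 regions contained at least 1 other gene of the same strand, whose own transcripts the FPKM would include.

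The 6 DoGs with the highest hiAGPC level among those called higher were of ZNF207, RCC1, ENSA, H2BC11, YBX1 and HNRNPC. ZNF207, a gene for a spindle assembly protein, had 2.68 and 2.51 FPKM in conventional and 8.96 and 8.95 FPKM in hiAGPC libraries (log2 fold change 1.75 ± 0.06). Its region was 55 and 40 kb in conventional and 100 kb in both hiAGPC libraries. RCC1, the exchange factor gene of the GTPase Ran, had 1.25 and 1.22 FPKM in conventional and 7.20 and 6.75 FPKM in hiAGPC libraries, with a region of 10 kb in both conventional and 101.1 kb in both hiAGPC libraries. Thus these loci gained in level and in length together. The FPKM regions of ZNF207, RCC1, H2BC11, YBX1 and HNRNPC held other genes of the same strand, whose own transcripts the FPKM would include. PSMD11 lay in that of ZNF207, and TRNAU1AP and RAB42 in that of RCC1.

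ENSA, which encodes an inhibitor of the phosphatase PP2A, showed a gain of level alone. It was listed at 20 kb in all 4 libraries, with no other protein-coding or long noncoding gene of its strand in the region, and its FPKM was 1.00 and 0.84 in conventional and 6.39 and 6.23 in hiAGPC libraries (2.66 ± 0.13). The RNA-binding protein gene YBX1 had 0.89 and 0.74 FPKM in conventional and 5.10 and 5.06 in hiAGPC libraries. HNRNPC, the gene of a pre-mRNA-binding protein, had 0.63 and 0.61 FPKM in conventional and 4.87 and 4.66 FPKM in hiAGPC libraries. Although these levels differed little between the hiAGPC replicates of HNRNPC, its listed region was 564 kb in one and 45 kb in the other. The histone gene H2BC11 had 1.62 and 1.49 FPKM in conventional and 6.02 and 6.10 FPKM in hiAGPC libraries.

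Of the 3 loci that the study displays as tracks and that are described here, RRM2 had the strongest signal. RRM2, the small subunit gene of ribonucleotide reductase, had 0.20 and 0.19 FPKM in conventional and 1.39 and 1.30 FPKM in hiAGPC libraries, with a listed region of 10 kb in each conventional and 220 kb in each hiAGPC library. Its FPKM region of 415 kb overlapped HPCAL1, ODC1-DT and ENSG00000234818 on the same strand. ARID1B, a chromatin remodeller subunit gene, had 0.11 and 0.09 FPKM and then 0.50 and 0.52 FPKM. TMEM38B, an intracellular cation channel gene, had 0.05 and 0.04 FPKM and then 0.25 and 0.22 FPKM. Neither of the last 2 was listed in any of the 4 libraries, although both were called higher (log2 fold changes of 1.61 ± 0.08 and 1.21 ± 0.12).

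The 15 DoGs called lower had high conventional levels for DoGs, from 0.86 to 18.5 FPKM, and 13 of them were among the 147 DoGs whose mean conventional FPKM was over 1. The call rule itself favours such levels. With 0.1 added to each value, a DoG below 0.1 FPKM in both conventional libraries cannot fall 2-fold. PTGES3, the gene of the HSP90 co-chaperone p23, had the highest of all, at 17.19 and 18.50 FPKM in conventional and 7.59 and 7.40 FPKM in hiAGPC libraries (log2 fold change -1.24 ± 0.13, adjusted p = 1.13e-06, limma). Its listing went the other way, at 15 kb in both hiAGPC libraries and in neither conventional library. TOP3A, a topoisomerase gene, had 5.46 and 5.85 FPKM in conventional and 2.32 and 2.18 FPKM in hiAGPC libraries. NOTCH1, the receptor gene, had 4.79 and 5.04 FPKM and then 2.33 and 2.17 FPKM. The lowest log2 fold change was that of NAA40, a histone N-terminal acetyltransferase gene, at 2.64 and 2.77 FPKM in conventional and 1.11 and 0.94 FPKM in hiAGPC libraries (-1.32 ± 0.21).

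Some of these 15 regions lay over another annotated gene. On the same strand, the PTGES3 region overlapped ATP5F1B, which encodes the beta subunit of ATP synthase, that of NAA40 overlapped COX8A, a subunit gene of cytochrome c oxidase, that of TOP3A overlapped the actin regulator gene FLII, and that of NOTCH1 overlapped SEC16A, a gene of endoplasmic reticulum exit sites. CS (citrate synthase; 3.71 and 3.65 FPKM in conventional, 1.70 and 1.66 in hiAGPC) overlapped ANKRD52. In all, 9 of the 15 overlapped a protein-coding or long noncoding gene of the same strand, against 1297 of the 3135 DoGs with a listed region. How far these genes' own RNA entered the values was not tested.

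The other 6 regions met no such gene. NEK6, a mitotic kinase gene, had 3.84 and 3.92 FPKM in conventional and 1.57 and 1.67 FPKM in hiAGPC libraries, and THOC5, a gene of the mRNA export complex THO, had 3.02 and 3.16 FPKM and then 1.42 and 1.53 FPKM. HUS1, a DNA damage checkpoint clamp gene, had 3.25 and 3.11 FPKM and then 1.5 and 1.58 FPKM. HSD17B12, an enzyme gene of fatty acid elongation, had 2.01 and 1.86 FPKM and then 0.82 and 1.01 FPKM. PGM2, a phosphoglucomutase gene, had 1.54 and 1.52 FPKM and then 0.65 and 0.61 FPKM. At all 5 the groups were separate. PGM2, THOC5, HSD17B12 and HUS1 were listed at 10 kb in each of the 4 libraries, so that here the level differed and the listed length did not. The sixth, AGAP9 (0.86 and 0.90 FPKM, then 0.36 and 0.30 FPKM), belongs to a family of near-identical gene copies. As the authors kept only uniquely mapped reads, reads shared by the copies are missing from its value.

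THOC5, HSD17B12 and HUS1 sat at the edge of the 2-fold threshold, at log2 fold changes of -1.02, -1.01 and -1.0. Without hiAGPC replicate 1 they came to -0.97, -0.87 and -0.96, and each missed 2-fold also without 1 of the conventional libraries (replicate 2 for THOC5 at -0.99, replicate 1 for HSD17B12 at -0.96 and HUS1 at -0.97). The remaining 4 called lower were TMEM167B, ZFP14, FOXO3B and the noncoding gene ENSG00000249388, with log2 fold changes between -1.28 and -1.05. The FOXO3B region began 13.1 kb before the end of the gene in GENCODE release 44, and that of ENSG00000249388 began 19.5 kb beyond it. All 15 regions were 50 kb or shorter, and 6 were of 10 kb. Level and listing did not always go together among the 15. PTGES3 and CS (10 kb) were listed in both hiAGPC and in neither conventional library, and NEK6 alone showed the reverse. Another 5 were listed in all 4 libraries and 5 in none of them. Over all 3139 DoGs, 21.4% of regions were of 10 kb or less, 15.1% of 50 to 100 kb and 18.9% longer than 100 kb.

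**Figure D3:**
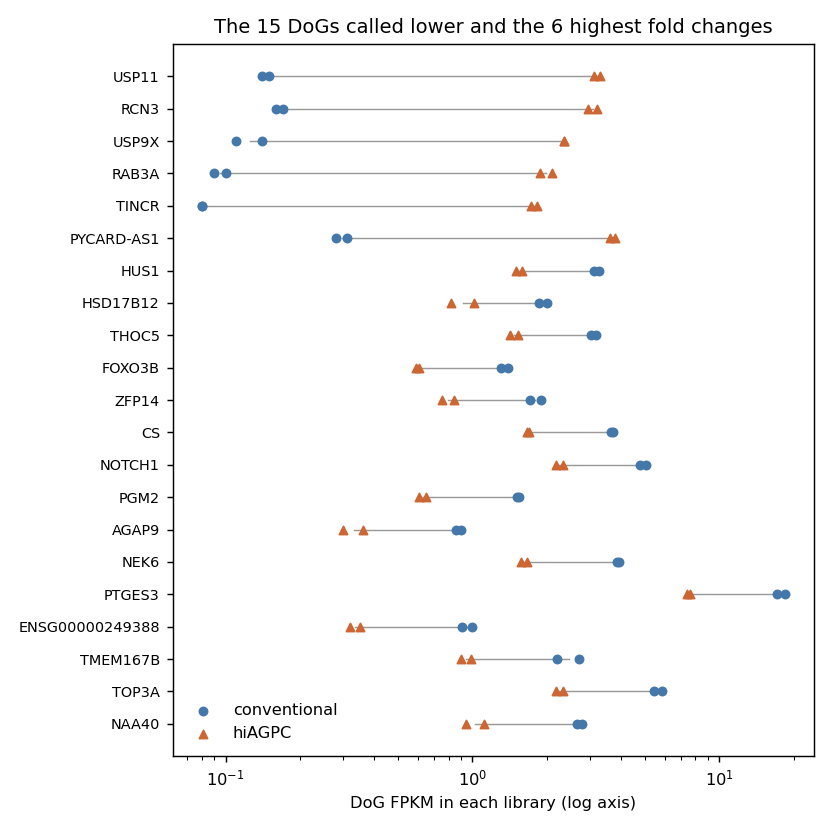
FPKM in each of the 4 libraries (log axis) of the 15 DoGs called lower in hiAGPC and of the 6 DoGs with the highest log2 fold changes, ordered by fold change. Circles are conventional and triangles hiAGPC libraries, and grey lines join the group means. At every DoG shown both values of one preparation lie beyond both values of the other.

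Genes grouped by function showed the same direction with unequal size. The lists, set by gene symbol, are described by their counts and medians beside the median log2 fold change of 1.40 and the 68.8% called higher over all DoGs, and only the zinc finger list had a member called lower. The FPKM region of the highest member of every list held another gene of the same strand, whose own transcripts the FPKM would include. CTNNA1 in that of EGR1 and TSPAN5 in that of EIF4E are examples. The same held for some of the lowest members. Of 48 DoGs of splicing factor and RNA helicase genes, 37 were higher, with a median log2 fold change of 1.71. The extremes were DDX3X, an RNA helicase gene (0.16 and 0.14 FPKM in conventional, 1.66 and 1.64 in hiAGPC), and DDX46 (1.54 and 1.42, then 1.39 and 1.25 FPKM), whose region began 24.0 kb inside the annotated gene. All 12 hnRNP genes and all 7 SR protein genes in the list were called higher, with medians of 2.04 and 1.87, while 12 of the 21 helicase genes (symbols in DDX or DHX) were, with a median of 1.31. These subgroups were formed after the values were seen.

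Ribosomal protein genes, whose mRNAs are among the most abundant of the cell, had long DoGs with a median FPKM region of 107.5 kb against 30 kb over all DoGs. Of 42 measured, 30 were higher and the median log2 fold change was 1.53. RPL3 was highest in the list, with 0.16 and 0.15 FPKM in conventional and 1.61 and 1.48 FPKM in hiAGPC libraries. RPL39L was near 0 in all 4 libraries and at most 0.02 FPKM. By subunit, again a division made after the values were seen, 18 of 21 genes of the small and 12 of 21 of the large subunit were called higher. Of 33 translation factor and tRNA synthetase genes 23 were higher (median 1.32). In that list EIF4E, the cap-binding factor gene, had 0.31 and 0.26 FPKM and then 2.58 and 2.53 FPKM, and EIF3L had 1.93 and 2.07 FPKM and then 1.34 and 1.27 FPKM.

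Replication-dependent histone genes, which end in a stem-loop and not in a poly(A) tail, had the lowest median of the lists, 0.88, with 10 of 23 called higher. Their DoGs were already well represented in conventional libraries, where the median was 1.03 FPKM against 0.15 FPKM over all DoGs. H1-1 had 0.22 and 0.19 FPKM in conventional and 1.10 and 1.11 FPKM in hiAGPC libraries, whereas H2AC12 had 2.54 and 2.47 FPKM and then 1.77 and 1.79 FPKM (log2 fold change -0.47, not called). Of the 9 H2B genes 5 were called higher and the median was 1.42, whereas of the 8 H4 genes 1 was called higher and the median was 0.0013. H4C4, for example, had 6.15 and 6.12 FPKM in conventional and 5.16 and 5.18 FPKM in hiAGPC libraries. H4C4 and the histone classes were chosen after their values were seen. Histone genes are clustered and 13 of these 23 regions overlapped another gene of the same strand, so the values cannot be assigned to 1 gene with certainty.

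Of the genes for 3′ end processing and termination, 9 of 11 had a DoG called higher, with a median of 1.74. INTS6, a subunit gene of the Integrator complex, had 0.57 and 0.50 FPKM in conventional and 2.40 and 2.37 FPKM in hiAGPC libraries, and its region went from 40 kb to 270 kb in both replicates. CSTF2T, a cleavage stimulation factor gene, had 0.55 and 0.56 FPKM and then 0.54 and 0.66 FPKM, so that its groups overlapped. Immediate early and stress response genes had 6 of 13 called higher (median 0.95). EGR1, a transcription factor gene induced by many stimuli, had 0.17 and 0.15 FPKM in conventional and 1.39 and 1.35 FPKM in hiAGPC libraries, and its region went from 10 kb to 140 kb in both replicates. DUSP1, described above, was the lowest of the list at -0.75.

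Proteasome and ubiquitin genes had 38 of 47 called higher, with a median of 1.55, and held USP11 and USP9X. USP17L7, the lowest there (1.41 and 1.31 FPKM, then 0.75 and 0.96 FPKM), is a copy in a tandem gene family, to which the same applies. Respiratory chain genes had 11 of 22 called higher (median 1.01), between COX6B2 (0.06 and 0.05, then 0.78 and 0.66 FPKM) and the assembly factor gene COX15 (0.62 and 0.52, then 0.32 and 0.24 FPKM). Solute carrier genes had 25 of 39 (median 1.27), with SLC16A11 highest at 2.40 and SLC49A4 lowest at -0.91. SLC16A11 was listed in hiAGPC replicate 2 alone of the 4 libraries, at 15 kb, and its FPKM region was 206 kb. Zinc finger genes had 49 of 78 called higher and 1, ZFP14, lower, with a median of 1.29. ZNF34 was highest there, at 0.29 and 0.30 FPKM in conventional and 2.38 and 2.24 FPKM in hiAGPC libraries.

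DoGs also extended from noncoding genes. Of 127 DoGs of antisense long noncoding RNA genes, 79.5% were called higher (median 1.48), and in that list G2E3-AS1 was lowest at -0.59. Divergent noncoding genes had 24 of 32 (median 1.47), between MVP-DT at 2.79 and LLPH-DT at -0.46. Of 7 host genes of small nucleolar RNAs 6 were called higher (median 1.44), from SNHG16 (0.26 and 0.25, then 1.85 and 1.73 FPKM) to SNHG17 (0.30 and 0.27, then 0.67 and 0.65 FPKM), which had a log2 fold change of 0.98. After centring of each library on its median DoG, the list medians ran from -0.57 for histone genes to 0.30 for 3′ end processing genes, with splicing factor and helicase genes at 0.26 and ribosomal protein genes at 0.08. Under that scaling 7 lists had a median below 0.

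**Figure D4:**
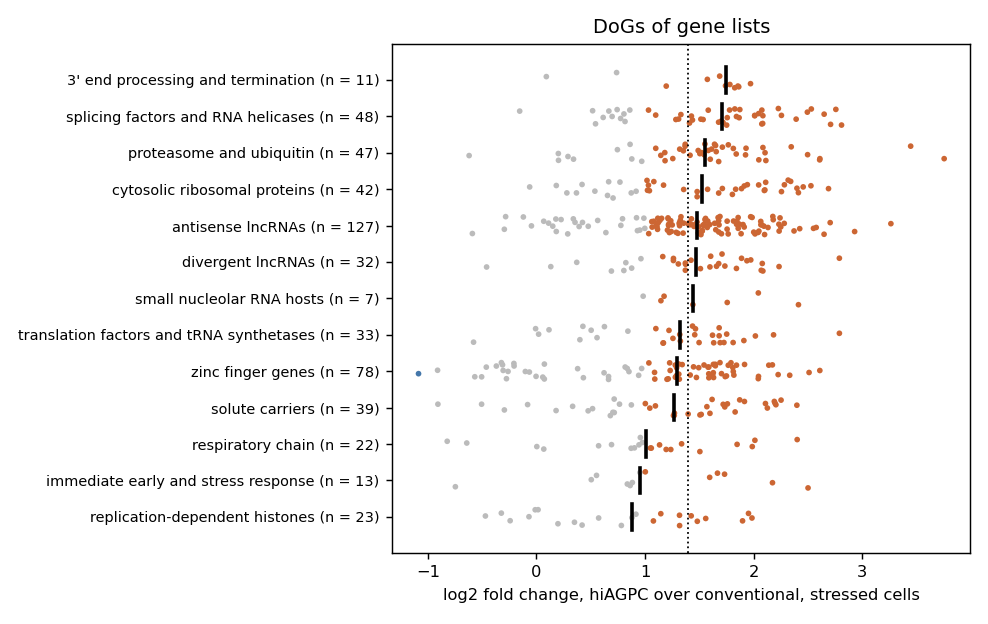
Log2 fold change of each DoG in 13 gene lists, hiAGPC over conventional in stressed cells. Orange points were called higher, blue lower and grey neither, black bars are list medians, vertical scatter within a row carries no value, and the dotted line is the median of all 3139 DoGs (1.40). List medians run from 0.88 to 1.74.

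Larger differences went with longer regions. The median log2 fold change was 0.94 over the 673 DoGs of 10 kb or less, 1.20 over those of 10 to 20 kb, 1.35 from 20 to 50 kb, 1.64 from 50 to 100 kb and 1.87 over the 594 longer than 100 kb. The share called higher went from 46.5% to 88.2% over the same classes. None of the 473 DoGs of 50 to 100 kb or the 594 longer ones was called lower, beside 15 of 3139 over all lengths. In regions that met no other gene on their strand the medians were 1.00, 1.24, 1.43, 1.72 and 1.87, so the order was the same there. Length and level are not independent measures, since the longest listing of a DoG came from a stressed hiAGPC or SERIPH 2nd-step library for 85.3% of the DoGs, and no test is given. Length as listed in the conventional libraries gave the same order. Among DoGs listed in both of these, the median was 0.51 for the 121 at 10 kb, 0.92 for the 103 at 10 to 20 kb and 1.74 for the 81 over 20 kb.

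**Figure D5:**
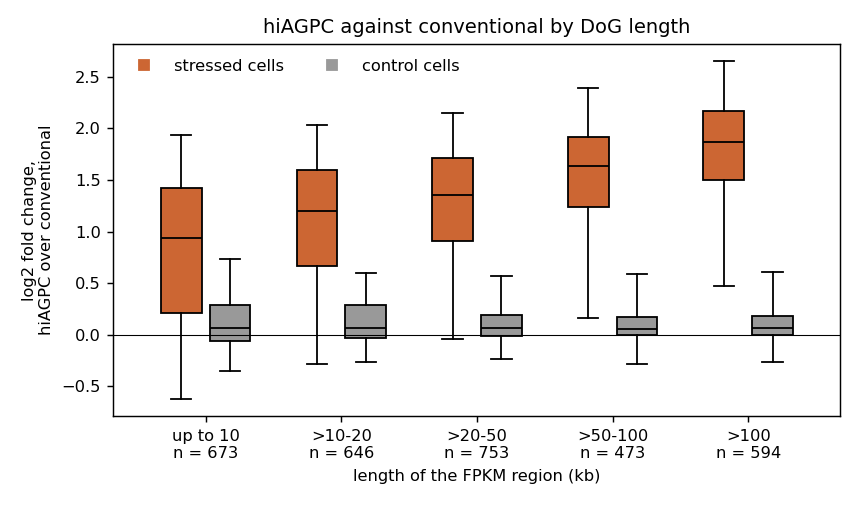
Log2 fold change of DoGs, hiAGPC over conventional, by the length of the FPKM region (kb). Boxes are quartiles with the median, whiskers reach the 5th and 95th percentiles, and n is the number of DoGs. In stressed cells (orange) the median goes from 0.94 in the shortest to 1.87 in the longest class, and in control cells (grey) it stays between 0.06 and 0.07.

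The conventional level itself set DoGs apart, though it is also the denominator of the fold change. At a mean conventional FPKM of 0.1 or less 82.1% were called higher, and at over 1 FPKM 10.9% were, with a median log2 fold change of -0.24. Within that last class the 40 regions without another gene of the strand had a median of -0.49 and the 107 with one had -0.16. Overlap was commoner in that class, at 107 of 147 DoGs, than over all DoGs with a listed region, at 1297 of 3135. How far the overlapped genes' own RNA entered these levels was not tested. GC content of the region showed no such order, with medians of 1.33, 1.48, 1.48 and 1.28 from the lowest to the highest quartile. Noncoding genes had 78.3% of 258 called higher and protein-coding genes 67.9% of 2873.

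The difference was seldom called in untreated control cells prepared in the same ways. There 34 DoGs (1.08%) were called higher and 0 lower by limma. The median log2 fold change was 0.06 in those cells, where 801 DoGs had an unadjusted p below 0.05. The difference itself between stressed and control cells was called higher at 2009 DoGs (64.0%) and lower at 23 (0.733%), at 132 and 0 with a pseudocount of 1, and at 109 and 542 with every library centred. In control cells many DoGs lay under the pseudocount, which holds their control log2 fold change near 0. Of the 2009, 1357 (67.5%) were below 0.1 FPKM in all 4 control libraries, for example USP11 (0.03 FPKM in both conventional, 0.03 and 0.04 FPKM in hiAGPC) and H1-1 (0 in all 4), and at such DoGs the extraction difference in control cells cannot be measured. Of the 1321 DoGs at 0.1 FPKM or more in all 4 control libraries, 461 (34.9%) had a higher difference in stressed cells, for example ENSA (0.34 and 0.27 FPKM in conventional, 0.47 in both hiAGPC libraries of control cells). Of the 2159 DoGs called higher in stressed cells, 1945 had a called difference from control cells and 7 were also called in control cells. BUB3 was one of the 7, with a control log2 fold change of 1.48 beside 2.00 in stressed cells. Of the 23 with a lower difference, 13 were DoGs called higher in control cells, for example HCCS-DT, which was at most 0.03 FPKM in the stressed libraries and had a control log2 fold change of 1.87. DoGs listed in stressed libraries alone were called higher in 79.8% of cases, and those listed in control libraries alone in 9.81%. The latter had stressed medians of 0.185 FPKM in hiAGPC and 0.105 FPKM in conventional libraries, close to the pseudocount. Listing in the compared libraries helped to set these classes, so the contrast is no separate result.

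Among the 15 DoGs called lower in stressed cells, 14 had a negative control log2 fold change and none was called there, with values from -0.64 for PTGES3 to 0.37 for AGAP9. The difference between the treatments was called for NAA40, AGAP9 and ZFP14. In the SERIPH libraries, which were made separately, all 15 were lower in the 2nd than in the 1st step (log2 fold changes from -4.66 for NEK6 to -1.77 for NAA40), and 2154 of the 2159 called higher were also higher there. Background shares in that comparison were 79.3% higher and 2.96% lower. Over the 3139 DoGs the 2 log2 fold changes had a Spearman correlation of 0.938, as a description across DoGs, which share the cells, the regions and the library chemistry.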

How the data were processed

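Short-read libraries of ribosomal RNA-depleted total RNA were made by the authors, whose processing notes name fastp 0.25.0, Bowtie2 2.5.4, STAR 2.7.11b and DESeq2. Only uniquely mapped reads were kept. Readthrough regions were called by the authors in each library with ARTDeco (minimum length 10 kb, window 5 kb, minimum coverage 0.5) on GRCh38 with GENCODE release 49, and deposited as positions. The deposited FPKM values are the authors' and give 1 level per DoG and library. Which reads set the scaling is not given in the sources used here, and DESeq2 cannot be run on FPKM.

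From these files, lists were joined by gene identifier, of which 3495 of 3505 were found in GENCODE release 44, used here for gene names and overlaps. FPKM values were tested as log2(FPKM + 0.1) with limma 3.58.1 in R 4.3.3, with group means for all 8 groups of the series (2 libraries each, 8 residual degrees of freedom), an intensity trend and Benjamini-Hochberg adjustment over all 3139 DoGs of a comparison. Calls needed an adjusted p under 0.05 and a log2 fold change of at least 1. On simulated data, 200 of 200 DoGs changed by 2 on the log2 scale were recovered in the stressed comparison, with 0 false calls among 2939. The changed DoGs had a mean of at least 0.1 FPKM, all DoGs had the same spread, and the 2939 were left unchanged. The simulation therefore does not bear on calls near 2-fold, on low levels or on a shift of most DoGs. Library totals were compared by a two-sided exact permutation test. P-values rest on the spread between replicate libraries, estimated over all 8 groups and moderated across DoGs, and not on the compared groups alone. Preparations made from the same material need not come from separate cultures. Across DoGs, the replicates had Spearman correlations of 0.980 (hiAGPC) and 0.964 (conventional).

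Named DoGs were the 6 highest fold changes, the 6 highest levels, all 15 called lower, extremes of length, of the difference between treatments and of each list, and 3 loci the study displays. DoGs and lists were chosen with earlier results of these data known. Alternatives were other pseudocounts (0.01 and 1), a filter at a mean of 0.1 FPKM, centring, a replicate block, the 4 libraries alone, no trend, adjusted p alone, restriction to reproducible or non-overlapping regions, a 20-kb minimum and leaving out each replicate. Gene expression was not analysed here.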

Additional observations from a re-analysis of the deposited data

Results flagged for a closer look

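The hiAGPC-conventional difference was tested between treatments, and the calls of that test are given here because it compares the extraction effect in stressed and control cells. The test gave 2009 DoGs with a higher and 23 with a lower log2 fold change in stressed cells (adjusted p under 0.05 and at least 1 on the log2 scale, limma with Benjamini-Hochberg adjustment). Among the DoGs named in the text, the stressed-minus-control difference in log2 fold change was called for 33. The largest belonged to USP11 (3.70), RAB3A (3.42), RCN3 (3.38), PYCARD-AS1 (3.26), USP9X (3.26), TINCR (3.23), HNRNPC (2.93), MVP-DT (2.73), DDX3X (2.67), HNRNPD (2.60), COX6B2 (2.60), RPL3 (2.59) and EGR1 (2.5). Differences between 2 and 2.5 were those of YBX1 (2.40), EIF4E (2.18), SNHG16 (2.18), ENSA (2.16), ZNF34 (2.14), RCC1 (2.13) and RPS29 (2.04). Smaller ones were those of H1-1 (1.98), RRM2 (1.97), SLC16A11 (1.94), ZNF207 (1.90), INTS6 (1.85), ZIC2 (1.81), MORF4L1 (1.78), H2BC11 (1.59) and ARID1B (1.51). The extraction difference was lower in stressed than in control cells for HCCS-DT (-1.73), AGAP9 (-1.56), NAA40 (-1.05) and ZFP14 (-1.01). Of the 29 named DoGs with a higher difference, 16 were below 0.1 FPKM in all 4 control libraries, under the pseudocount, where the control log2 fold change is held near 0 and the extraction effect cannot be measured. In HCCS-DT the stressed levels were at or below 0.03 FPKM, likewise under the pseudocount.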

How the results depend on the processing

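The 2159 higher and 15 lower calls did not move with a filter at a mean of 0.1 FPKM by more than 6 DoGs, nor with the 4 libraries alone or without the intensity trend. Higher calls became 144 with a pseudocount of 1, 111 with centring, 1105 among reproducibly listed DoGs and 1239 in regions with no other gene of the strand. Lower calls became 36 with a pseudocount of 0.01 and 2 with 1, 502 with centring, 128 by adjusted p alone, 8 among reproducibly listed DoGs and 6 without overlapping genes. The last 2 restrictions test fewer DoGs, so their counts are not losses of calls like those with a pseudocount of 1 or centring. The 1239 are 67.4% of the 1838 DoGs with no other gene of the strand, beside 68.8% over all DoGs. In the main fit 1105 of the 1392 DoGs listed in both hiAGPC libraries were called higher. Higher differences between treatments became 132 with a pseudocount of 1, 109 with centring, 1074 among reproducibly listed DoGs and 1122 without overlapping genes, and lower ones 0, 542, 2 and 12, or 126 by adjusted p alone. The median log2 fold change of 1.40 became 1.89 with a pseudocount of 0.01, 0.41 with 1, -0.046 with centring and 1.63 among reproducibly listed DoGs. The ratio of the numbers of genes listed in both replicates (1555 and 342), 4.55, became 9.45 with a 20-kb minimum, and the length ratio became 3.40 with that minimum and 1.25 without overlapping genes. Leaving out 1 library gave 2125 to 2177 higher and 14 to 19 lower calls, 1959 to 2032 and 21 to 23 calls of the difference, medians of 1.37 to 1.42, ratios of 4.28 to 4.60 and length ratios of 2.5 to 2.67. Centring turned CSTF2T (-1.35), HCCS-DT (-1.31), SNHG17 (-0.46) and TMEM38B (-0.24) negative. Leaving out 1 library turned values near 0, with ranges of -0.058 to 0.32 for HCCS-DT (lowest without conventional replicate 2), -0.033 to 0.21 for CSTF2T (lowest without hiAGPC replicate 2) and -0.19 to 0.069 for RPL39L (above 0 without conventional replicate 1 and, at 0.0060, without hiAGPC replicate 2). Over the named DoGs 720 values kept their direction and call, 39 lost the call, 28 gained it and 8 turned. The cause of these changes was not tested.

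With the replicate number as a block the calls were again 2159 and 15, and the difference between treatments 2009 and 23. The numbers need not pair the libraries, since the deviations of same-numbered libraries had a correlation of -0.054 over 3139 DoGs. Values rounded to 0.01 FPKM limit the lowest DoGs, where 1 step is a large part of the level.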
